A study of Homo sapiens with 3 samples.

Results

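Chemokine transcripts were examined in HCC1937, an established human breast cancer cell line that the labels class as basal, after treatment with a glucocorticoid alone or together with a retinoid. The members were 10 chemokine genes, CXCL8 (also called IL8), CXCL1, CXCL2, CXCL3, CXCL10, CXCL16, CCL20, CCL2, CCL5 and CCL28. They were found as every probe whose platform annotation names one of them, which gave 13 of the 47315 probes and 10 of the 20043 named genes. CXCL8, CXCL16 and CCL5 had 2 probes each and the other 7 genes had 1. The data were 3 Illumina bead arrays of total RNA, 1 per group. The first group was given 200 nM dexamethasone, a synthetic glucocorticoid, with 1 µM retinoic acid for 16 h, the second 200 nM dexamethasone alone for 16 h, and the third was left untreated. The medium of all groups was DMEM holding 3 mM glucose and 0.5 mM glutamine. A group with retinoic acid alone was not analysed here.

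Chemokines are small secreted proteins that attract leukocytes by binding G protein-coupled receptors. Epithelial cells make several of them when inflammatory signals activate the transcription factors NF-kappaB and AP-1. The glucocorticoid receptor is known in many cell types for lowering the expression of such genes, in part by acting on NF-kappaB and AP-1 and in part by inducing proteins that inhibit the pathway or destabilise AU-rich mRNAs. The direction of each chemokine under dexamethasone was therefore the question put to these arrays.

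The promoters of the neutrophil-attracting members are shown first because CXCL8 and CXCL1 were higher on both treated arrays. RefSeq promoter windows (GRCh38.p14, 250 bases before to 50 after the gene start) were found for 7 of the 10 genes, in 8 windows. The entries of CXCL16, CCL2 and CCL5 were not among them. The NF-kappaB motif GGAATTTCC, searched on both strands, was present in 5 of the 8 windows, those of CXCL8, CXCL1, CXCL2, CXCL3 and CXCL10, and in 0.461% of all 35116 windows. In the following stretches of 49 bases, written 5′ to 3′, capitals mark that motif.
CXCL8 (chr4:73740448-73740496, plus strand): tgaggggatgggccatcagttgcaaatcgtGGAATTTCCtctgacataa
CXCL1 (chr4:73869285-73869333, plus strand): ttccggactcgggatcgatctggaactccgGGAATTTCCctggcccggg
CXCL2 (chr4:74099254-74099302, minus strand): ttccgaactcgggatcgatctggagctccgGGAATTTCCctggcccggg
CXCL3 (chr4:74038749-74038797, minus strand): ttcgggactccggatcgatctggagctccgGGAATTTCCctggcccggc
The match began at position -91 from the gene start in CXCL8, -78 in CXCL1 and CXCL3, and -77 in CXCL2. Over these 49 bases CXCL1 and CXCL2 were identical at 47 positions and CXCL1 and CXCL3 at 45, against 24 for CXCL8 and CXCL1. The matches of CXCL1, CXCL2 and CXCL3 are therefore not independent, and the share of windows with the motif is no test of enrichment. Of these 4 genes with the motif, CXCL8 and CXCL1 were detected after treatment and CXCL2 and CXCL3 were not.

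The whole windows of CXCL8, CCL20 and CXCL10 are given for the members with the largest increases and for the one detected after dexamethasone alone. In CXCL8 the capitals mark TGACTCA, the AP-1 motif, and GGAATTTCC. In CCL20 they mark matches to GGGNNNNCC, a looser NF-kappaB motif, on either strand, and matches on the 2 strands overlap each other. In CXCL10 they mark GAAANNGAA, an interferon-stimulated element, then GGAATTTCC, which lies on the other strand there, then GGGNNNNCC.
CXCL8 (chr4:73740319-73740618, plus strand): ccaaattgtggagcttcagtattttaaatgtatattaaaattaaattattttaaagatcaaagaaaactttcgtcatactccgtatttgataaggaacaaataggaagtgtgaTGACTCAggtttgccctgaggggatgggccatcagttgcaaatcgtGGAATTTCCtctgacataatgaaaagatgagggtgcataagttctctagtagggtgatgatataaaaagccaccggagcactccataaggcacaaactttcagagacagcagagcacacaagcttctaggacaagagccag
CCL20 (chr2:227813592-227813891, plus strand): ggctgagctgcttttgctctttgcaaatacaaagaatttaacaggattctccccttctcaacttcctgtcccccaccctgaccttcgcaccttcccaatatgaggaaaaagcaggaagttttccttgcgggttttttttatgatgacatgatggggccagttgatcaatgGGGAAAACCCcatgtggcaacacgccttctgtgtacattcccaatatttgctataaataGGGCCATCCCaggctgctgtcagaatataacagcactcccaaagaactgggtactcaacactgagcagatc
CXCL10 (chr4:76023448-76023747, minus strand): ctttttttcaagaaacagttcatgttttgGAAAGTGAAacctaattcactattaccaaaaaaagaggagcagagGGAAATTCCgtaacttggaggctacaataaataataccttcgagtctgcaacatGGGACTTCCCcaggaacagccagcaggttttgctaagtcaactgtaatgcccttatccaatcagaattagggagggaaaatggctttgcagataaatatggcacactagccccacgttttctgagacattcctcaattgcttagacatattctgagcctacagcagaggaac
TGACTCA was found in 1 of the 8 windows and in 4.95% of all windows, and GAAANNGAA in 3 of the 8 and in 8.11% of all. GGGNNNNCC was found in 8 of the 8 windows and in 52.8% of all, and 0 of its matches in the members overlapped GGAATTTCC. The half-site of the glucocorticoid receptor motif, AGAACA, was in 1 of the 8 windows, that of CXCL2, and in 14.8% of all. These matches describe letters in the windows and say nothing of whether a factor bound there.

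Signals are given as the unnormalized mean bead intensity of a probe ± the standard error over its beads (bead SE). A probe is called detected where its deposited detection p-value, against the negative controls of its array, is under 0.01. Each group held 1 array, so no difference has a replicate check, no test was run, and the bead SE covers only the spread between beads of an array. The 3 arrays had median intensities between 131.6 and 159.0 and between 16635 and 17091 detected probes, and 12 to 30 beads lay behind each chemokine probe. Fold changes come from background-corrected, quantile-normalized log2 values, and the calls higher and lower need a log2 difference of 1 or more, that is 2-fold. Where the gene was undetected on 1 array of a pair, the smallest value detected on that array took its place (or its own value, if larger) and the fold is a lower bound, written "at least". The dexamethasone array lay on slide 2 and the other arrays shared slide 1, so for dexamethasone alone slide and treatment cannot be told apart. Both treated arrays are set against the same untreated array. In bulk RNA, fewer cells of a type and less RNA per cell cannot be told apart.

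As a check of the treatments, FKBP5, a co-chaperone gene induced by the glucocorticoid receptor, had an intensity of 9172 on the combination array and 10504 on the dexamethasone array, against 856 on the untreated array. CYP26A1, an enzyme that degrades retinoic acid and a retinoic acid receptor target, had 6160 on the combination array, against undetected values of 136 after dexamethasone and 126 without treatment. Both genes were chosen for this purpose with their values known. Of the epithelial markers, 5 of 5 were detected on each array. Of the basal markers with a named probe, KRT5 was detected on the dexamethasone array alone and KRT14 on none. Of the 4 endothelial markers, 0 were detected on any array. Of the 5 fibroblast markers, 0 were detected with the combination, 2 after dexamethasone and 1 untreated. Their summed intensity was 777 with the combination, 784 after dexamethasone and 686 untreated. Such sums are unnormalized, this one is mostly of undetected probes, and the median intensity of all probes was also lowest on the untreated array. No change is read from it. The collagen gene COL1A1 had an undetected 167 with the combination and 209 after dexamethasone, against 187 untreated, and was at least 2.21-fold lower with the combination than untreated. After dexamethasone its normalized log2 difference from untreated was -0.33. DCN, a matrix proteoglycan gene, was detected after dexamethasone alone, at 171, where the lowest detected intensity of that array was 168.4. Its other probes were undetected on all arrays. PTPRC and CD3E, which mark leukocytes and T cells, were undetected on all arrays. The summed intensity of the 5 named leukocyte markers was 1635 with the combination, 1405 after dexamethasone and 1567 untreated. CD14, a monocyte marker, was detected only with the combination, at 268.6, and its other probe was undetected on all arrays. CD68, a macrophage marker, was detected on all arrays, with 938 with the combination and 790 after dexamethasone, against 1028 untreated, and was 2.03-fold lower with the combination than untreated. A second detected CD68 probe differed by -0.08 on the log2 scale in that comparison. LYZ, the lysozyme gene, was undetected with the combination (143), against 175 after dexamethasone and 154 untreated. The part of these markers in the results was not tested.

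**Figure D1:**
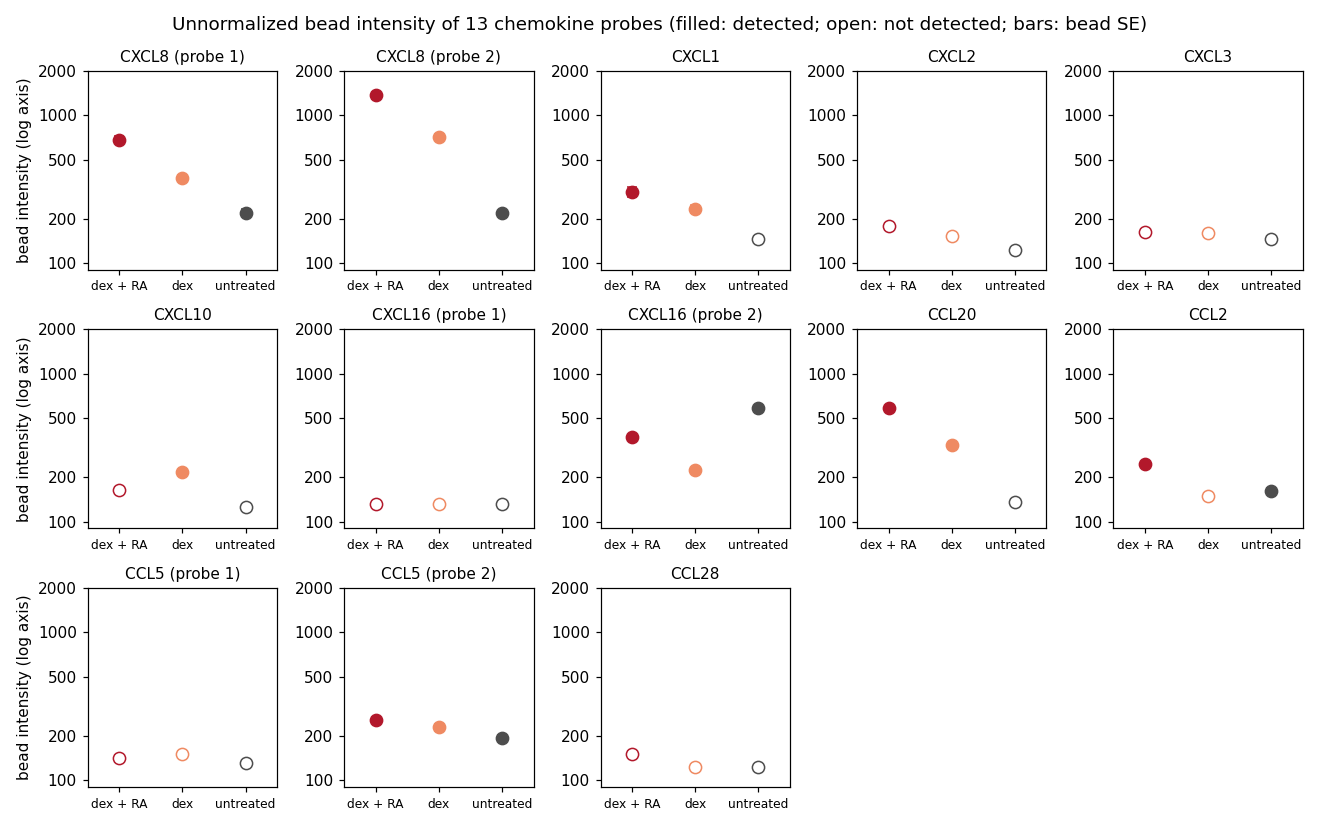
Unnormalized bead intensity (log axis) of each of the 13 chemokine probes on the combination (dex + RA), dexamethasone (dex) and untreated arrays, 1 array per group; bars are the bead SE and are often smaller than the symbol, and open symbols are undetected. Both CXCL8 probes, CXCL1 and CCL20 sit highest on the combination array and lowest on the untreated one. The CXCL2, CXCL3 and CCL28 probes, the detected CCL5 probe and the undetected CXCL16 probe have the same order. So do the array medians, 159.0, 149.3 and 131.6 on the combination, dexamethasone and untreated arrays. The detected CXCL16 probe is highest on the untreated array, with 584.5, and lowest on the dexamethasone array.

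The chemokines that attract neutrophils were led by CXCL8, which signals through the receptors CXCR1 and CXCR2. Its brighter probe had an intensity of 1366 ± 71.8 with the combination and 711 ± 33.9 after dexamethasone, against 217 ± 6.14 on the untreated array. The 3 values lay far outside their bead SEs and were highest with the combination. After normalization CXCL8 was 6.11-fold higher with the combination than untreated (log2 difference 2.61, bead SE 0.12) and 3.86-fold higher after dexamethasone (1.95, bead SE 0.11). Its other probe had 683 ± 35.9 with the combination and 377 ± 17.7 after dexamethasone, against 219 ± 11.7 untreated. That probe kept the order of the arrays but gave smaller folds, 2.69-fold with the combination and 1.64-fold after dexamethasone, and the fold after dexamethasone is under the 2-fold rule. On either probe the 3 unnormalized array values lay further apart than their bead SEs. These measure the spread between beads and not between cultures, and the arrays also differ in median intensity.

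CXCL1 binds CXCR2 and lies in the same gene cluster on chromosome 4. Its intensity was 302 ± 23.0 with the combination and 232 ± 13.2 after dexamethasone, against an undetected 145 ± 6.27 on the untreated array. It was at least 2.86-fold higher with the combination and at least 2.27-fold higher after dexamethasone. The untreated probe missed the detection limit narrowly (detection p 0.013). The difference after dexamethasone was 1.19 on the log2 scale but 0.45 without background correction and 0.41 with the deposited normalized values, so it depends on how the background is treated. With the combination it was 1.52, and 0.62 and 0.56 under those settings.

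CXCL2 and CXCL3, close relatives of CXCL1 that also act on CXCR2, were undetected on all 3 arrays. CXCL2 had 178 ± 9.16 with the combination, 154 ± 6.69 after dexamethasone and 123 ± 2.97 untreated, with its lowest detection p (0.0156) on the combination array. CXCL3 had 161 ± 7.36 with the combination, 159 ± 8.64 after dexamethasone and 145 ± 7.27 untreated. No fold is given for either gene. Because CXCL1, CXCL2 and CXCL3 have similar sequences, the signal of a probe for one of them could include another, and this was not tested.

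CCL20, which attracts lymphocytes and immature dendritic cells through CCR6, had the largest increase of the 10 genes in the main setting. Without background correction, with an offset of 50 and with the deposited normalized values CXCL8 exceeded it in both comparisons with untreated, and with 75th percentile scaling after dexamethasone (1.92 for CXCL8, 1.87 for CCL20). Its intensity was 587 ± 19.7 with the combination and 328 ± 9.23 after dexamethasone, against an undetected 136 ± 5.18 on the untreated array. CCL20 was at least 7.28-fold higher with the combination and at least 4.28-fold higher after dexamethasone. Both folds are lower bounds, so CCL20 is given no rank among the measured genes. For CXCL8, which was detected on all arrays, 70 of 10705 genes had a larger increase with the combination and 155 of 10852 after dexamethasone, with other genes' bounds taken at their value. The log2 difference of CCL20 after dexamethasone, 2.10, was 0.96 without background correction and 0.88 with the deposited normalized values, which ends that call.

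CXCL16 was the one member called lower. It is made as a transmembrane protein, can be released by cleavage, and binds CXCR6. Its detected probe had 372 ± 13.3 with the combination and 225 ± 7.06 after dexamethasone, against 585 ± 17.3 on the untreated array. CXCL16 was 3.56-fold lower with the combination (log2 difference -1.83, bead SE 0.09) and 6.64-fold lower after dexamethasone (-2.73, bead SE 0.11). There were 9 of 10852 measured genes with a larger decrease after dexamethasone, and 90 of 10705 with the combination, bounds again taken at their value. The second CXCL16 probe was undetected on all arrays, at 132 with the combination, 132 after dexamethasone and 131 untreated, so the decrease rests on 1 probe.

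CXCL10, an interferon-inducible chemokine that binds CXCR3 on activated T cells, had another pattern. It had an undetected 163 ± 8.56 with the combination, 216 ± 4.65 after dexamethasone and an undetected 125 ± 4.32 untreated. It was detected on the dexamethasone array alone, where it was at least 1.94-fold higher than untreated. Its value with the combination was at least 1.90-fold lower than after dexamethasone. In the main setting neither bound reaches 2-fold. The difference from untreated after dexamethasone, 0.96 on the log2 scale, ranged from 0.31 to 1.81 over 8 alternatives and passed the rule in 2. The dexamethasone array is the one on its own slide.

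CCL2, which recruits monocytes through CCR2, had 243 ± 8.01 with the combination, an undetected 149 ± 7.07 after dexamethasone and 161 ± 7.10 untreated. In the main setting it was at least 1.49-fold lower after dexamethasone than untreated (log2 difference -0.58). This bound is the whole distance from its untreated value to the lowest detected value of the dexamethasone array. The bead SE of 0.37 was computed from CCL2's own undetected value there, so it does not belong to the bound. That difference was -0.19 without background correction and -0.17 with the deposited normalized values, so the bound does not hold across settings. With the combination it was 1.34-fold higher than untreated (log2 difference 0.42, bead SE 0.21) and higher than after dexamethasone by a log2 difference of at least 0.999, just under the rule.

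CCL5, which attracts T cells and monocytes, differed little. Its detected probe had 257 ± 10.2 with the combination, 228 ± 12.5 after dexamethasone and 194 ± 8.45 untreated. After normalization the log2 difference from untreated was -0.19 (bead SE 0.18) with the combination and -0.18 (bead SE 0.22) after dexamethasone. The raw order and the normalized order are opposite here, and the arrays differ in median intensity. Its other probe was undetected on all arrays. CCL28, a mucosal chemokine that binds CCR10, was also undetected, with 150 ± 6.85, 123 ± 5.41 and 122 ± 4.16 on the combination, dexamethasone and untreated arrays.

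In counts, 7 members were measured in the comparison of dexamethasone with untreated, of which 3 were higher and 1 lower. Over all 10852 genes measured there, 5.73% were called higher and 4.57% lower. With the combination against untreated, 6 members were measured, 3 higher and 1 lower, where 5.84% of all 10705 measured genes were called higher and 5.43% lower. The median log2 difference of the measured members was 0.96 after dexamethasone and 0.97 with the combination, against 0.00 and -0.01 over all measured genes. The 0.96 is the value of CXCL10, a bound that moved with the setting. The 0.97 lies midway between the CXCL1 bound (1.52) and CCL2 (0.42). Members detected only on a treated array could enter these counts and medians in 1 direction alone. The counts and medians therefore describe the members and are no test.

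**Figure D2:**
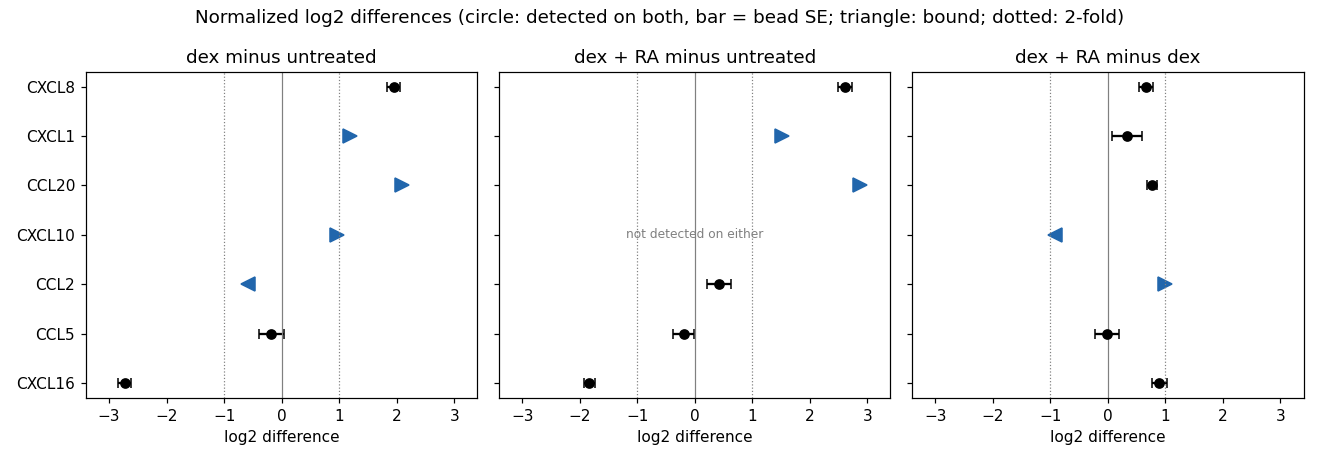
Normalized log2 differences of the 7 members detected on at least 1 array, in the 3 comparisons; circles with bead SE bars were detected on both arrays, triangles are bounds that point away from 0, and dotted lines mark 2-fold. CXCL8, CXCL1 and CCL20 lie above 1 and CXCL16 below -1 in both comparisons with untreated cells, and all members lie between those lines in the comparison of the 2 treatments.

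A fall could be measured in few of these genes. On the untreated array only CXCL8, CXCL16, CCL2 and CCL5 were detected, 4 of 10. Over all probes, 16818 of 47315 were detected on that array. The distance from the untreated value to the lowest detected value of the dexamethasone array was 14.4-fold for CXCL16, 3.32-fold for CXCL8, 2.54-fold for CCL5 and 1.49-fold for CCL2. CCL2 therefore could not have been called lower, and 3 of the 10 genes could. Of these 3, CXCL16 was called lower after dexamethasone, CXCL8 was called higher and CCL5 was neither.

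**Figure D3:**
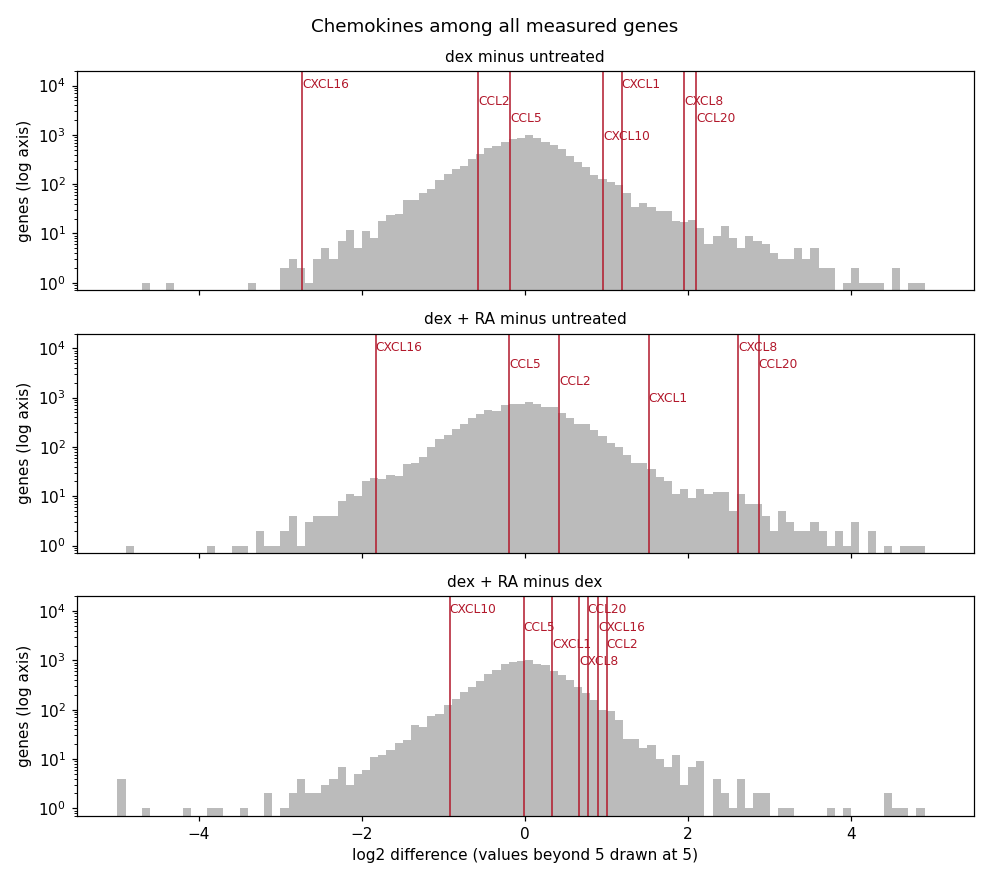
Number of genes (log axis) by log2 difference in bins over all measured genes, for each of the 3 comparisons, with the measured chemokines as labelled lines. After dexamethasone CXCL16 stands at -2.73 in the lower tail, where 9 genes lie further out, and CXCL8 stands at 1.95 in the upper tail, beside the lower bound of CCL20 at 2.10.

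The comparison of the combination with dexamethasone asked what retinoic acid added. No member passed the 2-fold rule, with 0 of 7 measured members higher and 0 lower, where 2.99% of all 10734 measured genes were called higher and 3.58% lower. CCL20 was 1.70-fold higher with the combination (log2 difference 0.77, bead SE 0.09) and CXCL8 1.58-fold higher (0.66, bead SE 0.12), or 1.64-fold on its other probe. CXCL16 was 1.86-fold higher (0.90, bead SE 0.13), so its value with the combination lay between those after dexamethasone and without treatment. CXCL1 differed by 0.33 (bead SE 0.26) and CCL5 by -0.02 (bead SE 0.20). These arrays lay on different slides. The pair that shared a slide, the combination and untreated arrays, showed the calls of CXCL8, CXCL1, CCL20 and CXCL16 within slide 1.

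Other chemokine ligands were mostly undetected. Of 34 further ligand genes, 33 had a named probe and 29 were undetected on all 3 arrays. In the comparison of dexamethasone with untreated, 3 of the 33 were measured, against 10852 of all 20043 named genes. CXCL12, the ligand of CXCR4, was undetected on the combination and dexamethasone arrays (171 and 165), against 282 on the untreated array. It was at least 5.04-fold lower with the combination and at least 5.30-fold lower after dexamethasone. Its other 2 probes were also detected on the untreated array alone. CXCL13, a B cell attractant whose gene lies beyond CXCL10 in the chromosome 4 cluster, had 189 with the combination and 275 after dexamethasone, against an undetected 124 untreated. It was at least 3.16-fold higher after dexamethasone and 2.88-fold lower with the combination than after dexamethasone. In the RefSeq order the cluster holds 13 ligand genes of these lists, from CXCL8 to CXCL13, and 5 of them were detected on any array. These were CXCL8, CXCL1, PPBP, CXCL10 and CXCL13.

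Receptors for most members were not seen. Of 23 receptor genes 21 had a named probe, and 17 were undetected on all arrays, CXCR1, CXCR2, CXCR3, CXCR6, CCR2 and CCR10 among them. In the comparison of dexamethasone with untreated, 3 of the 21 were measured, against 10852 of all 20043 named genes. The brightest CCR6 probe had 15228 with the combination and 17392 after dexamethasone, against 16555 untreated. Its other 2 probes had between 123 and 151 across the arrays and were undetected on both treated arrays, so the level of CCR6, the CCL20 receptor, cannot be settled from these probes. ACKR3, a receptor that removes CXCL12, had 547 with the combination and 226 after dexamethasone, against 331 untreated. It was 3.11-fold lower after dexamethasone than untreated, and 3.12-fold higher with the combination than after dexamethasone. Between the combination and untreated arrays, which shared a slide, its normalized log2 difference was 0.0045. CXCR4 was at least 2.06-fold lower with the combination and at least 2.16-fold lower after dexamethasone on the probe detected without treatment, and undetected on its other 2 probes.

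The NF-kappaB pathway was measured almost in full. Of its 14 genes, 13 were measured for the combination against untreated, with 4 higher and 0 lower, and 14 after dexamethasone, with 2 higher and 0 lower. Over all measured genes, 5.84% were called higher and 5.43% lower with the combination, and 5.73% and 4.57% after dexamethasone. The median log2 difference was 0.14 with the combination and 0.19 after dexamethasone. The counts use 1 probe per gene, and other probes can differ. After dexamethasone another NFKB2 probe was 2.09-fold higher than untreated, against 1.38-fold on the probe counted. Another NFKBIB probe was at least 2.32-fold lower, against 1.09-fold higher on the probe counted. All 4 genes past the rule with the combination are described here. NFKBIA, the inhibitor that holds NF-kappaB in the cytoplasm and a known target of both NF-kappaB and the glucocorticoid receptor, had 15853 with the combination and 11184 after dexamethasone, against 4271 untreated. It was 2.62-fold higher with the combination, and after dexamethasone it was higher by a log2 difference of 1.001 (bead SE 0.06), at the edge of the rule. TNFAIP3 (A20), an enzyme that dampens NF-kappaB signalling, was at least 3.16-fold higher with the combination and at least 4.27-fold higher after dexamethasone. The subunit gene REL and BCL3, a nuclear member of the inhibitor family, were 2.34-fold and 2.31-fold higher with the combination than untreated, and 2.65-fold and 2.04-fold higher than after dexamethasone. After dexamethasone alone these 2 genes differed from untreated by -0.17 and 0.18 on the log2 scale. The subunit genes NFKB1 and RELA stayed within 2-fold, at -0.12 and 0.03 with the combination and 0.21 and 0.53 after dexamethasone.

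**Figure D4:**
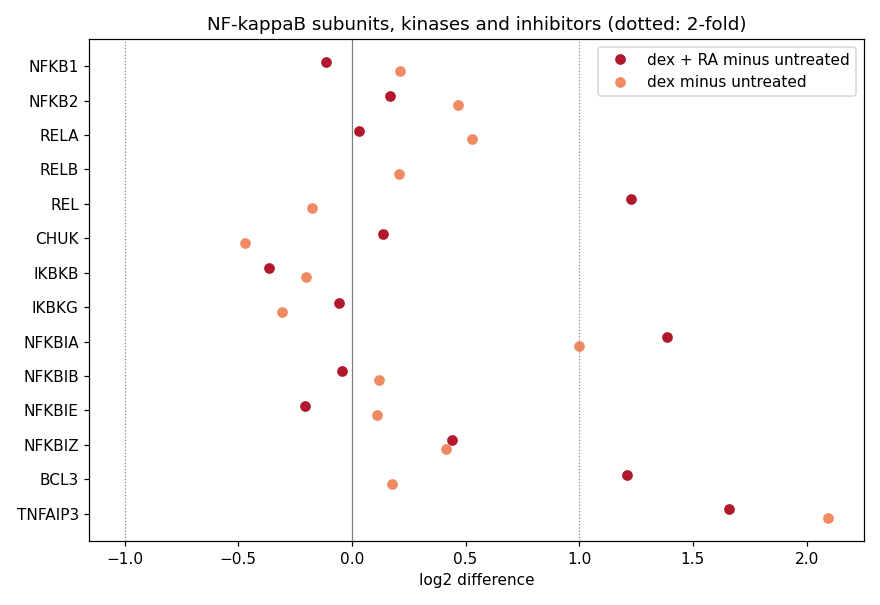
Normalized log2 differences from the untreated array for the 14 NF-kappaB genes, with the combination and after dexamethasone; dotted lines mark 2-fold, and a gene undetected on both arrays of a comparison has no point. On the probe drawn for each gene, NFKBIA and TNFAIP3 reach or pass 1 in both comparisons, REL and BCL3 with the combination alone, and none passes -1. Other probes of NFKB2 and NFKBIB, not drawn, stand at 1.07 and -1.22 after dexamethasone.

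Other genes that NF-kappaB induces were counted in the same way. Of 18 with a named probe, 8 were measured with the combination, 1 higher and 1 lower, and 9 after dexamethasone, 1 higher and 0 lower. Their median log2 difference was 0.40 with the combination and 0.00 after dexamethasone. The 0.00 is the value of TNFAIP2, set to 0 by the rule for undetected arrays, and is no measured absence of change. TNFAIP2 had 170 after dexamethasone, against an undetected 115 untreated. Its bound with the combination, 0.37, also enters the median of 0.40. For the NF-kappaB-inducible genes and the interferon-inducible ones below, the shares over all measured genes were 5.84% higher and 5.43% lower with the combination. After dexamethasone those shares were 5.73% and 4.57%. The cytokine TNF had 238 with the combination and 267 after dexamethasone, against an undetected 146 untreated, and was at least 3.00-fold higher after dexamethasone. LCN2, an iron-sequestering defence protein, was 3.02-fold higher with the combination, and the cytokine LTB was 2.08-fold lower. Interferon-inducible genes were measured at 10 in each comparison with untreated. With the combination 1 was higher and 3 lower, and after dexamethasone 0 were higher and 1 lower, with medians of -0.33 with the combination and -0.12 after dexamethasone. IRF1, a transcription factor, was 2.15-fold higher with the combination and ISG15, a ubiquitin-like protein, 2.71-fold lower.

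Genes that set the stability of AU-rich mRNAs, a class to which CXCL8 mRNA belongs, were all measured. None of the 9 passed the rule against untreated, on either treated array, and their median was -0.19 with the combination and -0.15 after dexamethasone. The shares over all measured genes in those comparisons are given above. ZFP36, whose protein (tristetraprolin) promotes decay of such mRNAs, differed by 0.55 with the combination and 0.81 after dexamethasone. Its relative ZFP36L2 was 2.75-fold lower with the combination than after dexamethasone. Of 7 protease genes, 3 were measured and none passed the rule. ADAM10, which cleaves CXCL16 from the cell surface, differed by 0.55 with the combination and 0.14 after dexamethasone.

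The genes with the most similar pattern were taken as the 3 nearest in the pair of log2 differences from untreated, among 10449 genes measured in both comparisons. The pair rests on 3 arrays and 1 shared untreated array, so it describes a position and no more. For CXCL8 they were PRKCD (distance 0.08), MT1G (0.15) and CEL (0.15). For CXCL16 they were IL17RB (0.22), NKD2 (0.24) and SLC5A8 (0.47). Neighbours of CXCL8 lay at distances close to the bead SE of its own differences, so their order is not resolved, and a neighbour's value may itself be a bound. CCL20 and CXCL1 were undetected on the untreated array, so both of their differences are bounds and no nearest genes are given for them.

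**Figure D5:**
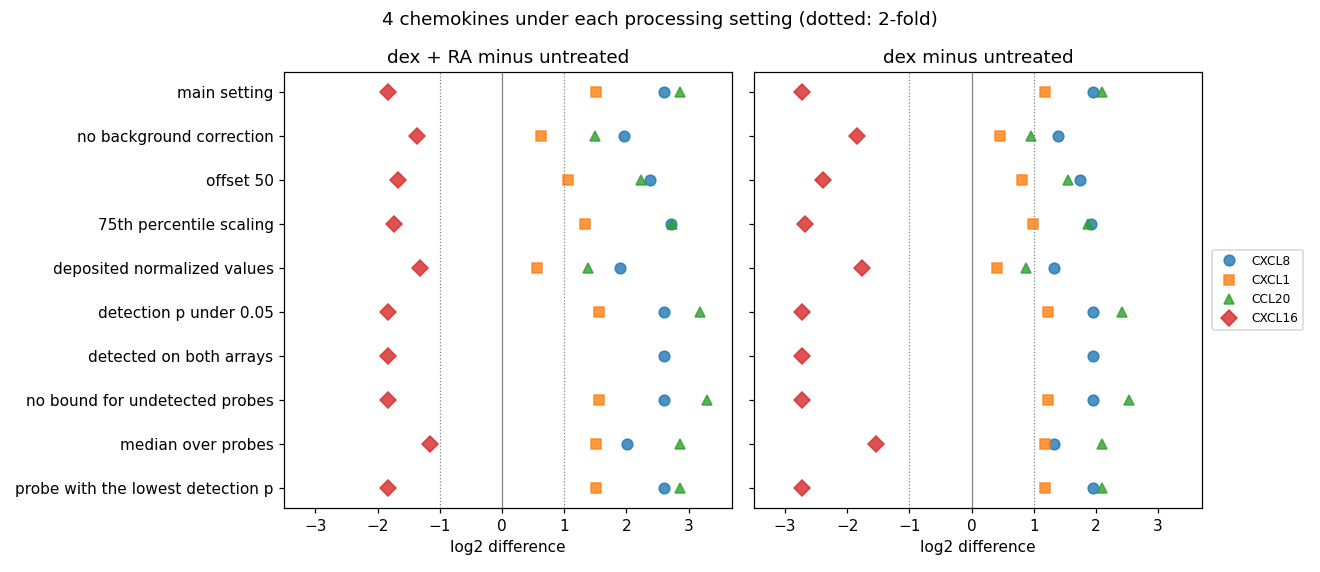
Normalized log2 differences from untreated of CXCL8, CXCL1, CCL20 and CXCL16 under the main setting and 9 alternatives, with the combination (left) and after dexamethasone (right); dotted lines mark 2-fold, and a gene has no point where it was left out by requiring detection on both arrays. CXCL8 and CXCL16 stay beyond the 2-fold lines in every setting shown, whereas CXCL1 reaches down to 0.41 and CCL20 to 0.88 after dexamethasone.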

How the data were processed

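Per the labels' protocols, biotinylated cRNA was prepared from total RNA of 3 HCC1937 samples. The deposited mean bead intensity and its standard error over beads are unscaled intensity values, per the file headers and the values. The deposited bead count gives the number of beads per probe, and the deposited detection p-value compares a probe with its array's negative controls, per the file headers. A second deposited table of linear intensity values had medians of 137.4, 137.5 and 137.5 and the same ranks within each array (Spearman correlation 1), so it appeared quantile normalized. The software is not given in the sources used here.

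With limma 3.58.1 in R 4.3.3, the background was estimated from the detection p-values, normexp was applied with an offset of 16, arrays were quantile normalized and log2 was taken. The bead SE on the log2 scale is the bead standard error divided by the corrected value, offset included, and by the natural logarithm of 2. For a difference, the squares of both arrays' bead SEs were summed and the root taken. It was computed before quantile normalization, so it leaves out any change that step makes to a difference. Later steps used Python 3.11.15, numpy 2.4.6, pandas 2.3.3 and matplotlib 3.10.9. A gene was represented by its probe with the highest mean, named by the platform annotation (30109 probes with 1 symbol). It was measured where detected on at least 1 of the 2 arrays. For an undetected array the smallest detected value took the gene's place, unless its own was larger, and the difference was 0 where this made that array the brighter. The calling step was tested on simulated data with folds placed on bright probes only, so recovery of a fold near background was not covered. No test was run, since each group held 1 array. The members, lists and the naming rule (all members, up to 4 genes past the rule per list and comparison, partner receptors, and the 3 nearest patterns) were chosen with earlier results of these data known. Some names under the rule are left out for length or because their values are bounds, and genes within 2-fold are named for their role.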

Additional observations from a re-analysis of the deposited data

How the results depend on the processing

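Each comparison was recomputed under 9 alternatives. No chemokine difference past the 2-fold rule changed direction in any of them. CXCL8 and CXCL16 kept their calls against untreated in all 9, with log2 differences of 1.90 to 2.71 and -1.83 to -1.15 with the combination, and of 1.33 to 1.95 and -2.73 to -1.54 after dexamethasone. CCL20 could be computed in 8 and passed the rule in 8 with the combination (1.39 to 3.30) and in 6 after dexamethasone (0.88 to 2.53). CXCL1 passed in 6 of 8 with the combination (0.56 to 1.56) and in 4 of 8 after dexamethasone (0.41 to 1.23).

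After dexamethasone the number of chemokines called higher was 1 in place of 3 without background correction, with the deposited normalized values and among genes detected on both arrays. That last filter left 3 measured chemokines in place of 7, and with the combination 1 called higher in place of 3, since it removes genes undetected in untreated cells. Without the bound, 2 chemokines in place of 1 were lower after dexamethasone, CCL2 being the added one (-1.16). With a detection p under 0.05, 4 chemokines in place of 3 were higher after dexamethasone, CXCL10 being the added one (1.28). With an offset of 50 and with scaling to the 75th percentile that number was 2. Between the combination and dexamethasone, 1 chemokine was called higher and 1 lower, in place of 0 and 0, with a detection p under 0.05 and without the bound (CCL2 and CXCL10), and 1 was lower with scaling to the 75th percentile. Over all genes, calls after dexamethasone numbered 305 higher and 177 lower without background correction, 289 and 165 with the deposited values and 448 and 325 with an offset of 50, against 622 and 496. With the combination they were 271 and 239, 259 and 221, and 433 and 409, against 625 and 581. Between the treatments they were 106 and 152, 105 and 145, and 199 and 265, against 321 and 384. With scaling to the 75th percentile the balance turned in 2 comparisons, with 395 higher and 355 lower between the treatments and 530 and 534 after dexamethasone.

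No paired analysis was possible because each group held 1 array. The number of arrays and the closeness of most chemokine signals to background limit what these data can show.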
